A study of Saccharomyces cerevisiae with 9 samples.

Results

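The leaders of nuclear genes for mitochondrial ribosomal proteins of Saccharomyces cerevisiae were described from the sequences of a synthetic RNA pool and from structures predicted for them. Members were taken from a list of 36 genes on the Watson strand, 22 for the large and 14 for the small subunit, as the wild-type RNAs that carry one of these gene names. 35 of the 36 genes were found, as 67 wild-type RNAs, among 2370 genes and 4383 complete wild-type RNAs. MRPL7 was not among the RNAs analysed. The list does not hold every such gene of the pool. MRP10, PET123, FYV4 and MNP1, 4 other genes for mitochondrial ribosomal proteins, are also present and serve below as a comparison list. A leader, the part of an mRNA before its start codon, of at least 10 nt was found for 33 genes (20 large and 13 small subunit) in 63 RNAs. The 2 other genes have a single leader each, of 2 nt in MRPL3 and 7 nt in RSM10. MRPL37 has a 3-nt leader and MRPL24 a leaderless RNA beside longer ones, and both were kept by their longer leaders.

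The pool RNA was made in vitro with T7 RNA polymerase and probed with dimethyl sulphate (DMS), which methylates unpaired A and C bases. The series has 9 libraries in 3 groups of 3: RNA denatured at 95 °C for 2 min before DMS, RNA denatured, refolded and kept at 30 °C for 2 min before DMS, and the same refolded RNA left without DMS. All groups hold naked RNA of the same pool, with no cap, protein or ribosome named in the labels. The measured columns carry a replicate number that 1 library of every group shares, so no measured value could be tied to a condition and none is reported here. The results below are exact sequence counts and predicted pairing, with no replicate error, and the spread given is that between genes. By its title the series concerns elements that enhance translation by recruiting the initiation factor eIF3, and no result here bears on binding of that factor.

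Mitochondrial ribosomes make the few proteins encoded by mitochondrial DNA, most of them subunits of the respiratory chain and ATP synthase. In yeast nearly all proteins of these ribosomes are encoded in the nucleus, translated in the cytosol and imported, many of them by an N-terminal targeting sequence that is rich in basic and poor in acidic residues. In the cytosol the small ribosomal subunit joins near the mRNA cap and scans the leader for an AUG, and pairing in the leader or over the start codon can slow that step.

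Each pool RNA is 182 nt long and has GGG, an insert of 159 nt with leader, start codon and the first part of the coding sequence, and a constant 3′ stretch of 20 nt. The last 12 nt of the insert differ between RNAs of 1 gene and are called the tag here. Wild-type RNAs carry every AUG other than the start codon as AGU, so a replaced codon marks where the gene has an AUG. Replaced codons were told by their lower-case letters in the deposited sequences, and any other AGU was not counted. The letter case printed below does not show this, so the agt in the RSM27 leader arm is not a replaced codon. The stretches that carry the results follow, 5′ to 3′ with T for U, and positions count from 1 at the A of the start codon, with -1 just before it. MRPL51 holds the members' only replaced upstream codon, and its capitals mark AGT, the start codon and the stop codon of the upstream frame. In MRPL4 and MRPL28, which have the most open leader and the most open start region, capitals mark the start codon. In MRPS8 they mark the longest run of U. In RTC6 they mark 3 near-cognate codons in frame with the start codon. In MRP4, RSM27 and MRPL27 they mark the arms of predicted helices at or near the start codon.
MRPL51 upstream codon and start: cgaatatAGTgagaaATGgttgTGAaag
MRPL4 start: ccataaaaatataataaaaATGtggaagag
MRPL28 start: acacaacgaagataacacATGctggcacaa
MRPS8 U run: atacaccTTTTTTTcgatcta
RTC6 upstream codons: catATAACGgctACGgtt
MRP4 hairpin: aaaGTGAGAAAcgactctTTTCTCATgcag
RSM27 leader arm: acgaagTGGTACGTagtgat
RSM27 start: ttcaatgaACGTACCAaaggcg
MRPL27 start: caaataACTAAAATGAaaggctca
MRPL27 coding arm: gtgaaTTATTTTAGTggtta

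The leaders of the mitochondrial ribosomal protein genes were about as long as those of the pool as a whole and longer than those of cytosolic ribosomal proteins. The mean leader length per gene had a median of 44.5 nt over the 33 genes, against 42.3 nt over the 2273 genes of the pool that pass the same 10-nt minimum and 25 nt over 83 cytosolic ribosomal protein genes. By definition about 50% of all genes lie above the pool median, and 17 of the 33 members did. Genes of the oxidative phosphorylation list had a median of 52.8 nt (22 genes), and those of mitochondrial translation factors and tRNA synthetases 32.5 nt (16 genes).

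Small-subunit leaders were the longer ones, with a median of 55 nt against 37.25 nt for the large subunit, and the difference, large minus small subunit, of -17.75 nt was -11 nt when the longest leader of each gene was taken. 10 of 13 small-subunit genes and 7 of 20 large-subunit genes lay above the pool median, and the ranges of the subunits overlapped widely. RSM26 (mS42), one of the small-subunit proteins found only in mitochondrial ribosomes, had the longest mean leader, 95 nt. RTC6 (YPL183W-A, bL36m, the counterpart of bacterial L36) followed with 90 nt, and MRP4 (YHL004W, uS2m, the counterpart of bacterial S2) with 87 nt. Among the 33 genes that pass the 10-nt minimum the shortest were all of the large subunit: MRPL15 (mL57) with 11 nt, MRPL33 (uL30m, the counterpart of bacterial L30) with 16 nt and MRPL35 (mL38) with a mean of 17.5 nt.

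**Figure D1:**
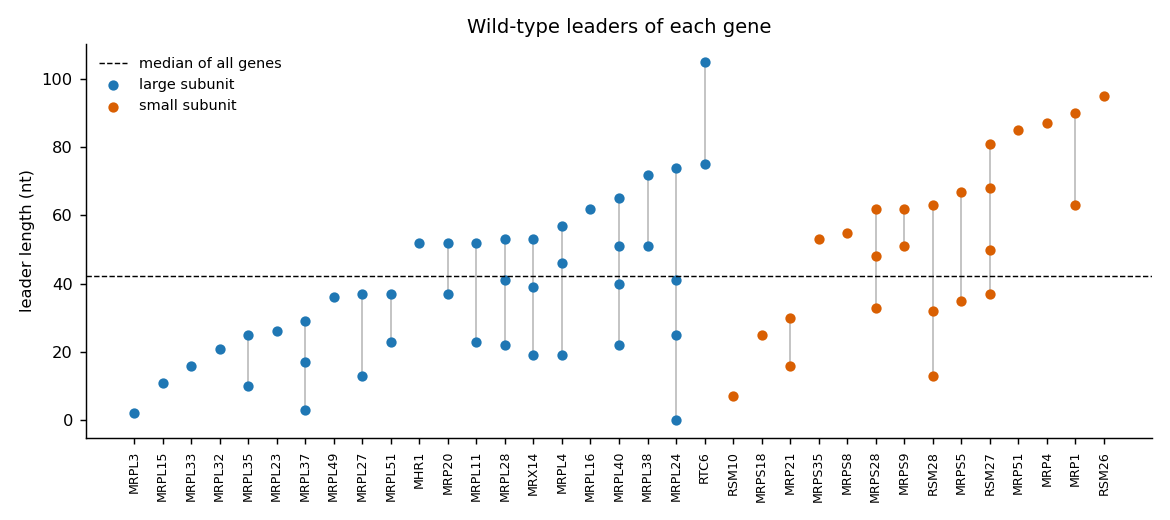
Length in nt of each wild-type leader (points) of the 35 genes, ordered by subunit and longest leader, with a line joining leaders of 1 gene and a dashed line at the median of all genes (42.3 nt). Small-subunit genes reach above the dashed line more often, 10 of 13 by their mean length against 7 of 20 of the large subunit.

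In base composition the members did not share the A-rich leaders of cytosolic ribosomal proteins. Their median A content was 37.9% against 38.8% over all genes and 52.2% over the cytosolic list, and 14 of 33 were above the pool median (50% of all genes by definition). MRP20 (YDR405W, uL23m, at the exit of the ribosome's protein tunnel) was highest with 64.7%, followed by MRPL4 (YLR439W, uL29m, the counterpart of bacterial L29) with 55.8% and MRPL27 (YBR282W, mL41) with 55.1%. MRPS18 (uS11m, the counterpart of bacterial S11) was lowest with 20%, and MRPL49 (bL21m) had 22.2% and RSM27 (YGR215W, mS33) 25.4%. GC content had a median of 38.5% against 35.0% over all genes, and 24 of 33 members were above the pool median. It ran from 20.8% in MRPL4 to 54.5% in MRPL15, whose leader is only 11 nt long. U content had a median of 16.6% in the large and 26.7% in the small subunit against 25.5% over all genes, with the highest value, 43.5%, in MRP51 (YPL118W, bS1m), a small-subunit protein linked to the leaders of mitochondrial mRNAs.

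Long runs of 1 base were rare. A run of at least 8 A was present in 1 of the 33 genes, where 3.74% of all genes have one. MRPS8 (uS8m) holds 7 U in a row, the only run of at least 6 U, where 5.72% of all genes have one. With so few cases the share among members cannot be read as higher or lower than that of the pool.

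The third base before the start codon, most often A in yeast, was A in 20 of the 34 genes whose leader reaches it, against 61.3% of all genes. A further 8 genes had G, 3 had C and 3 had U. By subunit A was found in 14 of 20 large-subunit and 6 of 14 small-subunit genes, which is a difference of few genes.

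MRPL51 (YPR100W, mL43) was the only one of 33 members with a replaced AUG in a leader, where 15.6% of all genes have one, and 7 of 16 genes for mitochondrial translation factors and synthetases. Its codon starts at position -8, out of frame with the start codon, and in the sequence above its frame runs for 5 codons, counting the AUG, and ends with TGA at position 10, so it overlaps the start of the coding sequence. When the AUG was put back before folding, the predicted unpaired probability of the 23-nt leader went from 0.529 to 0.249, and that of the 37-nt leader from 0.612 to 0.513. With the AUGs of the coding part put back as well, the 23-nt leader had 0.413. Both leaders are thus predicted to be more open in the pool than with the AUG. The start codon with 10 nt on each side went the other way when the AUGs of leader and coding part were put back. Its unpaired probability rose from 0.486 to 0.589 with the 23-nt leader and from 0.494 to 0.573 with the 37-nt leader.

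Codons that differ from AUG by 1 base (near-cognate codons) can serve as weak start sites. In the longest leader of each gene, 26 of 33 members had at least 1 such codon in frame with the start codon and no stop codon between, against 71.8% of all genes. Of the 4 other mitochondrial ribosomal protein genes, 0 had such a codon. The leader had no in-frame stop codon at all in 11 of 33 members against 32.8% of all genes. These were 10 of 20 large-subunit genes and 1 of 13 small-subunit genes, MRP21 (bS21m). A shorter leader has fewer codons that could be a stop. Large-subunit leaders were shorter (median 37.25 nt against 55 nt), and MRP21 had the shortest mean leader of the small subunit, 23 nt. Whether the subunits differ at equal length was not tested. The longest open stretch was that of RTC6, whose 105-nt leader is open over its whole length and has 6 near-cognate codons, 3 of them in capitals above, the farthest an ATA at position -84. MRPL16 (uL16m) followed with 60 nt and 6 such codons, among them a TTG at -45, and MRPL4 with 57 nt and 3 such codons. No measurement here shows that any of them is used.

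The first codons of the members were poor in acidic residues and held more basic than acidic ones. Among the first 20 codons, members had a mean of 3.35 basic codons, against 2.51 over all genes and 3.16 over the cytosolic ribosomal protein list. The means of acidic codons were 0.382 in members, 1.95 over all genes and 1.36 over the cytosolic list. Among the first 20 codons, arginine and lysine codons outnumbered aspartate and glutamate codons by a median of 3 over 34 genes, against 1 over all 2217 genes with enough coding sequence. The excess was above the pool median in 31 of 34 members and in 35.3% of all genes, and no acidic codon was present in 24 of 34 members and in 24.5% of all genes. MRPL4, MRP4 and MRP21 had the highest excess, 5 codons each. MRPL38 (uL14m), with 2 basic and 2 acidic codons, had none. The excess had a median of 3 in the oxidative phosphorylation list, 4 in the mitochondrial translation list and 1 in the cytosolic ribosomal protein list. It was 4.5 over the 4 other mitochondrial ribosomal protein genes, so each of the other mitochondrial lists showed it too.

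Predicted pairing was expressed as the unpaired probability, from 0 (always paired) to 1 (always open), averaged over the bases of a leader and then over the leaders of a gene. Member leaders had a median of 0.464 against 0.481 over all genes and 0.573 over the cytosolic ribosomal protein genes, and 11 of 33 lay above the pool median (50% of all genes by definition). The 4 other mitochondrial ribosomal protein genes were more open, with a median of 0.661 and 3 of 4 above the pool median. The member values thus do not stand for all genes of this kind. The SD between members was 0.111, larger than the distance of their median from that of the pool. The most open leaders were those of MRPL4 with 0.757, MRP20 with 0.710 and MRP21 with 0.688, and the A-rich leader of MRPL4 is shown above. The most paired were those of MRX14 (bL34m) with 0.289, MRP1 (mS43, related in sequence to superoxide dismutase) with 0.301 and MRPL15 with 0.314.

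Openness followed A content across the genes. Pearson's r between A content and unpaired probability was 0.686 and Spearman's rho 0.635 over the 33 members, and 0.521 and 0.493 over all 2273 genes. With GC content r was -0.624 over the members and -0.256 over all genes. These are correlations across genes, which are not independent replicates, and the folding model itself reads the bases, so they describe the prediction.

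**Figure D2:**
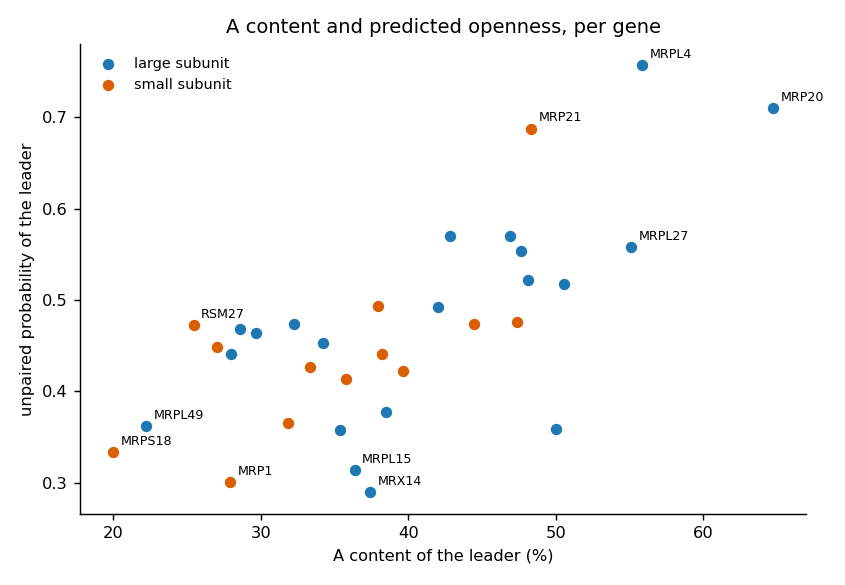
Unpaired probability of the leader (0 to 1, mean of the leaders of a gene) against its A content in percent, 1 point per gene, coloured by subunit. MRPL4 and MRP20 lie at the A-rich and open end, and MRX14, MRP1 and MRPL15 lie lowest.

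Around the start codon the window was more open in the median large-subunit gene than in the median small-subunit gene. Over the start codon and 10 nt on each side, the median unpaired probability was 0.451 over the members and 0.476 over all genes, 0.487 in the large and 0.404 in the small subunit. 12 of 33 members lay above the pool median (50% of all genes by definition), 11 of 20 of the large subunit and 1 of 13 of the small subunit, MRP21 with 0.540. The 4 other mitochondrial ribosomal protein genes had a median of 0.416, from 0.336 in MNP1 to 0.510 in FYV4. Of these, 2 of 4 lay above the pool median. They were not split by subunit, so the subunit values hold for the members only. Over whole leaders the subunit medians differed by 0.0299, but with the insert folded alone by 0.0661, more than the 0.0567 around the start codon in that setting. The difference of 0.0831 between the subunit medians was smaller than the SD of 0.0990 between members, and it was looked for after the values had been seen, so it stands as a description. MRPL28 (YDR462W, mL40) had the most open window, 0.728, followed by MRPL4 with 0.668 and MRPL24 (bL28m) with 0.648. MRPS8 had the lowest, 0.306, then MRPL33 with 0.326 and MRPS28 (YDR337W, uS15m) with 0.342.

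**Figure D3:**
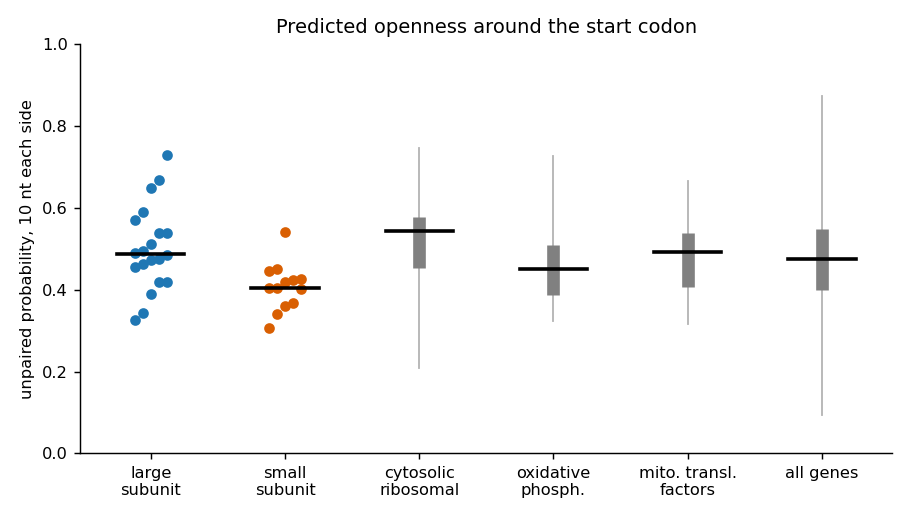
Unpaired probability over the start codon and 10 nt each side, with members as points by subunit and the comparison sets as range (thin line) and quartiles (thick bar), and black lines at the medians. 12 of 13 small-subunit members lie below the pool median of 0.476. The 4 other mitochondrial ribosomal protein genes are not drawn.

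The start codon itself was predicted open, with an unpaired probability of at least 0.5, in 8 of 33 members against 34.7% of all genes. MRP20 had the highest value, 0.898. MRPL51 had the lowest, 0.0241, with a helix of 7 base pairs from position -1 to 6 that pairs with positions 12 to 18 (pair probability 0.974 in the 23-nt and 0.909 in the 37-nt leader). The last 10 nt of the leader were more open than the first 10 nt after the start codon in 22 of 33 members against 61.6% of all genes, by a median of 0.0594 against 0.0691. The member median was 0.143 with 5 nt on each side and 0.105 with the insert folded alone. MRPL32 (bL32m) had the largest difference, 0.629, with the last 10 nt of its leader at 0.909 and the first 10 coding bases at 0.281. MRP1 had the opposite, -0.711, with the last 10 nt at 0.0729 and the first 10 coding bases at 0.784.

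Leader bases paired with other parts of the RNA in different proportions. Of all predicted leader pairing, the start codon and coding part took a median of 41.2% (35.4% over all genes), the leader itself 26.4% (37.1%), and the designed parts, namely GGG, tag and constant stretch, 19.9% (17.1%). Pairing within the leader took a median of 9.68% in the large and 43.4% in the small subunit, whose leaders are longer. In MRP4 it took 85.8%. In MRPL32 97.1% was with the coding part. In MRPL33 99.4% was with the designed parts, through a helix of 9 base pairs with pair probability 0.933, and in MRPL23 (uL13m) 96.0%. Folded without GGG and the constant stretch, MRPL23 had an openness of 0.713 in place of 0.378, and MRPL33 0.382 in place of 0.359.

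**Figure D4:**
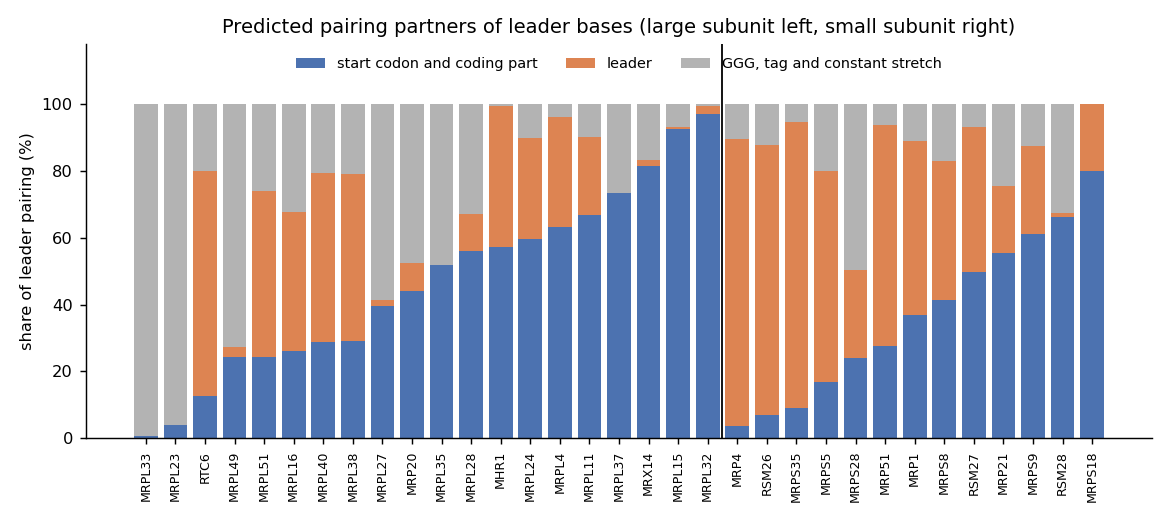
Share in percent of the predicted pairing of leader bases that is with the start codon and coding part, with the leader, or with the designed parts of the pool RNA, for each of the 33 genes, ordered by the first share within each subunit. MRPL33 and MRPL23 pair almost wholly with designed parts, and MRP4, RSM26 and MRPS35 mostly within the leader.

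Some predicted helices lay at or near the start codon. In RSM27 the bases at -44 to -37 pair with positions 5 to 12, over 8 base pairs in the 81-nt and 68-nt leaders (pair probability 0.988 in both) and over 7 base pairs in the 50-nt leader (0.989). The 37-nt leader of the same gene lacks the leader arm, and there the first 10 nt after the start codon had an unpaired probability of 0.433, against 0.160, 0.159 and 0.207 in the longer ones. The 37-nt RNA holds 1 replaced codon and the others none, and with its AUG put back the value was 0.214, close to theirs. In MRP4 an 8-pair hairpin joins -21 to -14 with -6 to 2 (0.804), which covers part of the start codon. It was weaker, 0.583, when the insert was folded without GGG and the constant stretch.

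Other helices were much less probable with the replaced codons put back. In the 37-nt leader of MRPL27 the start codon pairs with positions 85 to 94 over 10 base pairs (0.829), and the coding arm printed above ends in AGT, which stands for an AUG of the gene. With every AUG of the leader and coding part restored the pair probability was 0.00201, and the openness around the start codon went from 0.267 to 0.655. In MRPS28 a 9-pair helix with the constant stretch in the 33-nt leader went from 0.783 to 0.0998, and in the 13-nt leader of RSM28 (YDR494W, mS46) a 7-pair helix with tag and constant stretch from 0.923 to 8.66e-04. Of the 63 member leaders, 45 lie in an RNA with at least 1 replaced codon, and restoring all of them moved the leader's openness by more than 0.1 in 6 RNAs of 5 genes, 3 up and 3 down, with a median change in size of 0.0177 over the 45. The leader of MRP1 with 63 nt, among the most paired, went from 0.275 to 0.386.

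RNAs of 1 gene with leaders of different length had start regions that differed to varying degrees, partly with the replaced codons they hold. The insert has a fixed length of 159 nt, so an RNA with a longer leader also holds less coding sequence. Its tag differs too, so the differences between RNAs of 1 gene cannot be assigned to the leader alone. 20 members have at least 2 leaders of 10 nt or more, and the openness around the start codon differed between them by a median of 0.0728, against 0.0550 over 1192 genes of the pool. It ran from 0.00749 in MRPL51 to 0.375 in MRPL27. With every AUG of the leader and coding part put back, the median over members was 0.0550, that of MRPL27 was 0.00861 (0.664 at 13 nt and 0.655 at 37 nt), and the largest was 0.271 in MRPL37 (mL54). All genes were not refolded in this way. The SD within a gene, as a root mean square over genes, was 0.101, and the SD of the gene means was 0.0994. All genes had 0.0670 and 0.104. The SD of the gene means holds part of the spread within genes, so these values do not split the variance. With the AUGs put back the SD within a member gene was 0.0680. The longest leader had the less open window in 14 of 20 members, against 50.3% of all genes with several leaders, and was itself less open than the shortest in 12 of 20, against 48.5%. With the AUGs put back these counts were 14 and 10, but the 14 were not all the same genes, as MRPS9 left and MRPL51 joined. The counts take in small differences, such as -0.00899 for the window in MRPL4.

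Among the members whose leaders differ by at least 30 nt, some start regions hardly moved and others did. MRPS5 (uS5m), with leaders of 35 and 67 nt, had 0.446 and 0.456. MRPL40 (uL24m), with 4 leaders of 22 to 65 nt, stayed between 0.466 and 0.495, and MRPL24 with leaders of 25 to 74 nt between 0.629 and 0.674. In RSM28 the window went from 0.233 in the 13-nt leader to 0.511 in the 63-nt leader, and in RSM27 from 0.548 in the 37-nt leader to 0.346 in the 81-nt leader. With the AUGs put back, RSM28 had 0.418 and 0.512 and RSM27 0.367 and 0.346, so most of both differences went with the replaced codons. MRPL28 went from 0.631 at 22 nt to 0.777 at 53 nt, where a 7-pair helix of -31 to -25 with the coding part (0.998) lies away from the start codon. MRPL4 lay between 0.603 and 0.706, MRX14 between 0.426 and 0.519, and RTC6 at 0.453 with its 75-nt and 0.385 with its 105-nt leader. With the AUGs put back RTC6 had 0.438 and 0.429, and MRPS5 0.442 and 0.483.

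**Figure D5:**
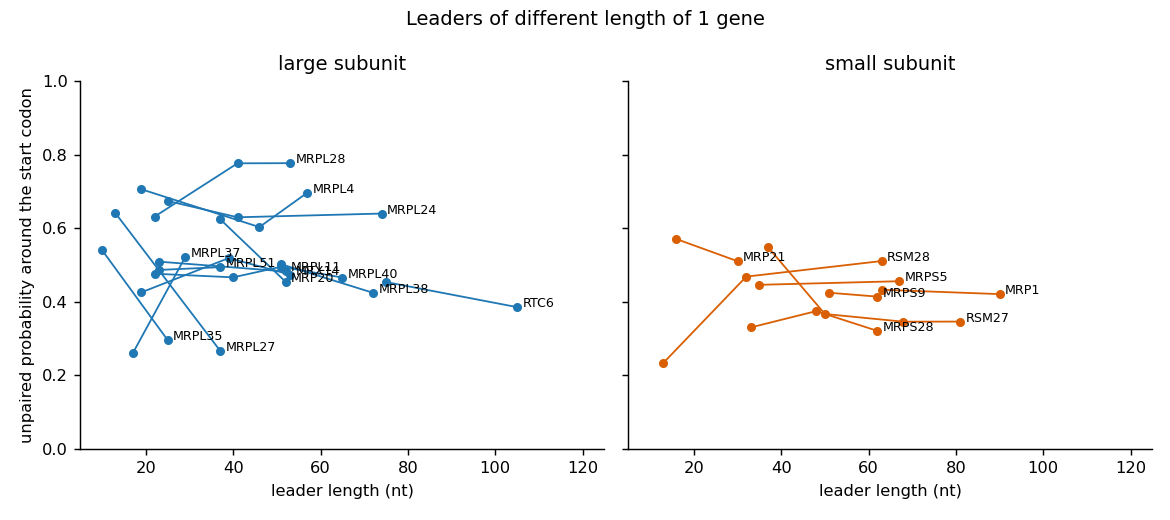
Unpaired probability around the start codon against leader length in nt, 1 point per wild-type leader of at least 10 nt, with lines joining leaders of 1 gene and a panel for each subunit. MRPL27 differs by 0.375 between its 13-nt and 37-nt leaders as in the pool, and by 0.00861 with the replaced AUGs put back, which is not drawn.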

How the data were processed

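RNA was transcribed with T7 RNA polymerase and reverse-transcribed with TGIRT-III, per the labels' protocols. Per the submitters' processing notes STAR and SAMtools were used; their versions and roles and the genome build are not stated there. The authors deposited 1 table with a row per position of each RNA (1048575 positions, 5762 RNAs), which ends within an RNA, so the pool is held in part. The 6 value columns were not used because each replicate number is shared by 3 conditions, so depth per library is not given. Only names and bases were used.

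Leaders run from after GGG to the lower-case ATG. Complete RNAs were folded with ViennaRNA 2.7.2 at 30 °C, and the unpaired probability of a base is 1 minus its summed pair probabilities. Leaders under 10 nt were left out and leaders of a gene averaged. Symbols and protein names came from RefSeq. Helpers were tested on simulated sequences. Members and lists were chosen with earlier results of these data known, and no test was run. The members named in full were the 3 highest and 3 lowest by length, A content and both openness measures, those with AGT, runs, the longest open frames or leaders differing by at least 30 nt. Helices and restoration of all AUGs outside the tag were chosen after seeing the data. Some stretches of sequence and the results that need them are not reported here.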

Additional observations from a re-analysis of the deposited data

How the results depend on the processing

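Of 67 alternative settings over 18 results, 65 left the value within the spread between genes or within 1.5 times the count, and no sign turned. The 2 exceptions were counts of runs. With runs of at least 5 U, 3 members had one (MRP51, MRPS8, RTC6) in place of 1. With runs of at least 6 A, 4 members had one in place of 1. The share of all genes with such a run was also higher at these lower thresholds. The share of members lay below that of all genes for U and close to it for A. With so few cases no difference from the pool can be read from these counts. The spread between genes was larger than some of the differences judged by it, so these could hardly leave it. The subunit difference over whole leaders, 0.0299, ran from 0.0166 folded at 37 °C to 0.0661 with the insert folded alone, against a spread of 0.111. The subunit difference around the start codon stayed between 0.0567 and 0.0983. It and the restoration of every AUG in leader and coding part were added after seeing the data. No paired analysis was possible because no value column names a condition, and leaving out replicates was not run for the same reason. Predictions without reactivity, salt or protein limit all values on pairing.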

Other observations

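The pool also holds variants of MRPL51, which is a large-subunit gene, with the upstream AUG present and AGU in place of the start codon. In the variant of the 23-nt leader the leader's predicted unpaired probability was 0.311, against 0.529 in the wild-type RNA, and in that of the 37-nt leader it was 0.384 against 0.612. The upstream AUG itself had 0.0172 and 0.576 in them. The variants differ from the wild-type RNAs at 12 and 14 bases, which include tag bases, so the values are not those of the AUG alone.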
